A study of Mus musculus with 18 samples.

Results

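The respiratory chain of the inner mitochondrial membrane is built from subunits of nuclear and of mitochondrial genes, and 86 nuclear genes for such subunits were followed here in mouse midbrain and striatum. The members were the protein-coding genes whose symbols belong to the NADH dehydrogenase families Ndufa, Ndufb, Ndufc, Ndufs and Ndufv, to Sdha to Sdhd, to Uqcr, to Cox4 to Cox8 or to Atp5, together with Cyc1 and Cycs. Of 20897 genes listed for the substantia nigra and 20257 for the striatum, the same 86 met this rule in both tissues, and all 86 passed the filter on low counts. They comprise 37 genes of complex I, 4 of complex II, 9 of complex III, 18 of complex IV, 17 of complex V and the gene of cytochrome c. Ndufa4 and Ndufa4l2 were counted with complex IV, where the Ndufa4 protein is now placed.

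Complexes I, III and IV pass electrons towards oxygen and pump protons, complex II feeds in electrons from succinate without pumping, and complex V uses the proton gradient to make ATP. Cytochrome c carries electrons between complexes III and IV. Dopamine neurons of the substantia nigra have a high demand for this ATP, and inhibitors of complex I damage them.

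RNA was sequenced from the substantia nigra and striatum of wild-type C57BL6 mice 3 weeks after an injection into the striatum, with 3 libraries per group and tissue. In the first group the injection was 6-OHDA (6-hydroxydopamine, a toxin taken up by dopamine neurons; 4 µg) and the mice received TUG469, an agonist of the fatty acid receptor GPR40, at 10 mg/kg/day into the peritoneum. The libraries labelled 6-OHDA had the same toxin with PBS into the peritoneum, and the PBS libraries had PBS by both routes. Replicates carry the numbers 1, 2 and 4 with TUG469, 2, 3 and 4 with 6-OHDA alone and 1, 2 and 3 with PBS. Nothing in the labels says that they are separate animals, so p-values measure the spread between these libraries, which may be technical.

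Total counts were 51665747 to 61933756 per nigra library and 42242389 to 61992226 per striatum library. Slc6a3, the dopamine transporter that marks the neurons 6-OHDA destroys, averaged 13.6 ± 2.76 CPM (counts scaled to library size) in TUG469 plus 6-OHDA nigra, 54.6 ± 11.2 CPM in nigra labelled 6-OHDA and 57.5 ± 11.1 CPM in PBS nigra (SD, n = 3 each). The dopamine-synthesis gene Th averaged 17.1 ± 4.16, 51.4 ± 9.51 and 33.1 ± 6.85 CPM in the same 3 groups. In the libraries labelled 6-OHDA the mean of Slc6a3 was thus close to PBS and that of Th above it, which goes against the label, so every direction given for that group is a direction for the libraries that carry this label.

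The subunit genes are short and abundant. Their median effective transcript length, computed from the deposited counts and FPKM, was 821 bases in the nigra table and 827 bases in the striatum table, against 3240 and 3274 bases over all genes listed; Atp5k was the shortest (362 bases in nigra) and Cycs the longest (3570 bases). The members took 0.895 to 1.07% of all counts in nigra libraries and 0.696 to 0.826% in striatum libraries. The 13 subunits of the mitochondrial genome took 6.49 to 7.95% in nigra and 9.0 to 10.6% in striatum.

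Per length, the median gene of ATP synthase had the highest level of the 5 complexes in PBS mice. Median levels in PBS nigra were 373 TPM (a level corrected for transcript length and library size) for complex V, 310.33 TPM for complex IV, 266 TPM for complex III, 179 TPM for complex I and 177 TPM for complex II, beside a median of 9.88 TPM over all genes listed. PBS striatum gave the same order, with 315, 245, 223, 151 and 137 TPM, beside 8.56 TPM over all genes. The summed TPM of complex IV, whose median includes rare isoforms, was nevertheless above that of complex V in PBS striatum (6802 to 7404 against 6099 to 6534 TPM) and below it in PBS nigra (6877 to 7012 against 7566 to 7761 TPM). Cytochrome c itself was lower than any of these medians, with Cycs at 95.4 ± 6.12 TPM in PBS nigra and 78.1 ± 6.33 TPM in PBS striatum (SD, n = 3 each).

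Within a complex the levels of single subunits were far from equal. Atp5b, the catalytic β subunit of ATP synthase, was the highest member in PBS nigra at 1434 ± 43.4 TPM and Atp5d, the δ subunit of its central stalk, the lowest of complex V at 198 ± 16.6 TPM. Cox4i1, the largest nuclear subunit of cytochrome c oxidase, reached 1103 ± 19 TPM in PBS nigra, and Cox7b2 1.21 ± 0.706 TPM. In complex II, Sdha, the flavoprotein that oxidises succinate, stood at 404 ± 22.1 TPM and its membrane anchor Sdhd at 138 ± 8.56 TPM in PBS nigra (SD, n = 3 each). Uqcrh, the hinge protein of complex III, was the highest of its complex in PBS nigra at 615 ± 30.9 TPM, and Uqcrq the lowest at 106 ± 3.82 TPM. In complex I the accessory subunit Ndufb8 led at 441 ± 4.42 TPM in PBS nigra. Ndufb4b was the lowest at 15.4 ± 1.65 TPM, but it and Ndufb4c are near-identical copies of Ndufb4, so their levels are uncertain; how reads were assigned among these genes was not tested.

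The share of the RNA held by 1 isoform differed between isoform groups. Cox4i1 held 99.4 to 99.7% of the TPM of the Cox4 pair in the 9 nigra libraries and 99.2 to 99.6% in the 9 striatum libraries. Cox6a2, the heart and muscle form of subunit 6A, held 0.290 to 3.64% of its pair in nigra and 1.25 to 1.80% in striatum. Cox7a1, the muscle form of subunit 7A, held 1.10 to 1.85% of its group in nigra and 0.358 to 1.12% in striatum. The rest was divided between Cox7a2 (43.5 to 48.8% in nigra) and the related Cox7a2l (49.7 to 55.2% in nigra). The testis form Cox6b2 held 0.906 to 1.46% of its pair in nigra and 0.595 to 1.52% in striatum. The c ring of ATP synthase is encoded by 3 genes for the same mature protein, and Atp5g3 held the largest share of them: 50.2 to 52.8% in nigra and 42.2 to 51.8% in striatum.

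Between nigra and striatum of PBS mice, subunit genes were called in both directions, at shares near or below those of all genes. In a joint fit, 17 members were higher and 24 lower in PBS nigra than in PBS striatum (edgeR quasi-likelihood test, Benjamini-Hochberg adjusted p under 0.05), where 28.5% of all 18749 genes tested were called higher and 27.3% lower. DESeq2 called 17 higher and 25 lower, where it called 5423 higher and 5091 lower of all 19401 genes. The median log2 difference of the members was -0.01. Of 18 members of complex IV, 1 was called higher and 5 lower (median -0.10), of 4 of complex II 2 higher and 0 lower, and of 37 of complex I 9 higher and 11 lower. With the trend of counts with transcript length removed, the complex IV median was 0.06, with 11 of 18 above 0.

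Several accessory subunits, and the core complex I subunit Ndufs3, were among the lower calls of smallest p. Ndufa1, a subunit at the joint of the complex I arms, was at 133.81, 138.54 and 147.08 TPM in PBS nigra and at 205.26, 182.86 and 207.3 TPM in PBS striatum, and the groups did not overlap. Its log2 difference was -0.79 (SE 0.0748, edgeR adjusted p = 2.49e-07). Cox8a, a subunit with a single membrane span, was at 829.26, 820.46 and 817.09 TPM in PBS nigra and 1153.5, 1080.6 and 1085.4 TPM in PBS striatum, again apart, with a log2 difference of -0.71 (SE 0.0824, edgeR adjusted p = 2.23e-06). Uqcr11 (-0.76), Cox5b (-0.65), Cox6a1 (-0.64) and Cox7c (-0.38) followed. Ndufs3, Ndufs4, Ndufa5 and Ndufb9 were also called lower by edgeR, and DESeq2 put their log2 differences at -0.45, -0.45, -0.42 and -0.33. On the higher side, Sdha was at 397.04, 429.17 and 386.94 TPM in PBS nigra against 263.51, 265.64 and 250.2 TPM in PBS striatum, which do not overlap. Its log2 difference was 0.35 (SE 0.0693, edgeR adjusted p = 0.000427), and Ndufb8 differed by the same 0.35 (SE 0.0774, adjusted p = 0.00117). All 13 mitochondrially encoded subunits were lower in PBS nigra, by a median of 0.88 on the log2 scale.

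The split of these calls moved with the scale. With the trend of counts with transcript length removed it was 35 higher and 10 lower, and with limma on log2(TPM + 1) it was 48 higher and 7 lower. On the TPM scale the median of all genes itself shifted by 0.22 towards nigra, against a member median of 0.28. All the subunits named above as called kept their directions on both scales. Cox7c lost its call on both (-0.09 with TPM, adjusted p = 0.154, and -0.12 with the length trend removed, adjusted p = 0.197). Ndufa5 and Ndufb9 also lost their calls on both scales. Over all alternatives their log2 differences reached -0.13 and -0.04. Ndufs4 lost its call with TPM. Ndufa4 (-0.02) became higher under both (0.27 with TPM, 0.23 with the length trend removed) and Cox7a2 (-0.12) became higher with TPM (0.21).

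**Figure D1:**
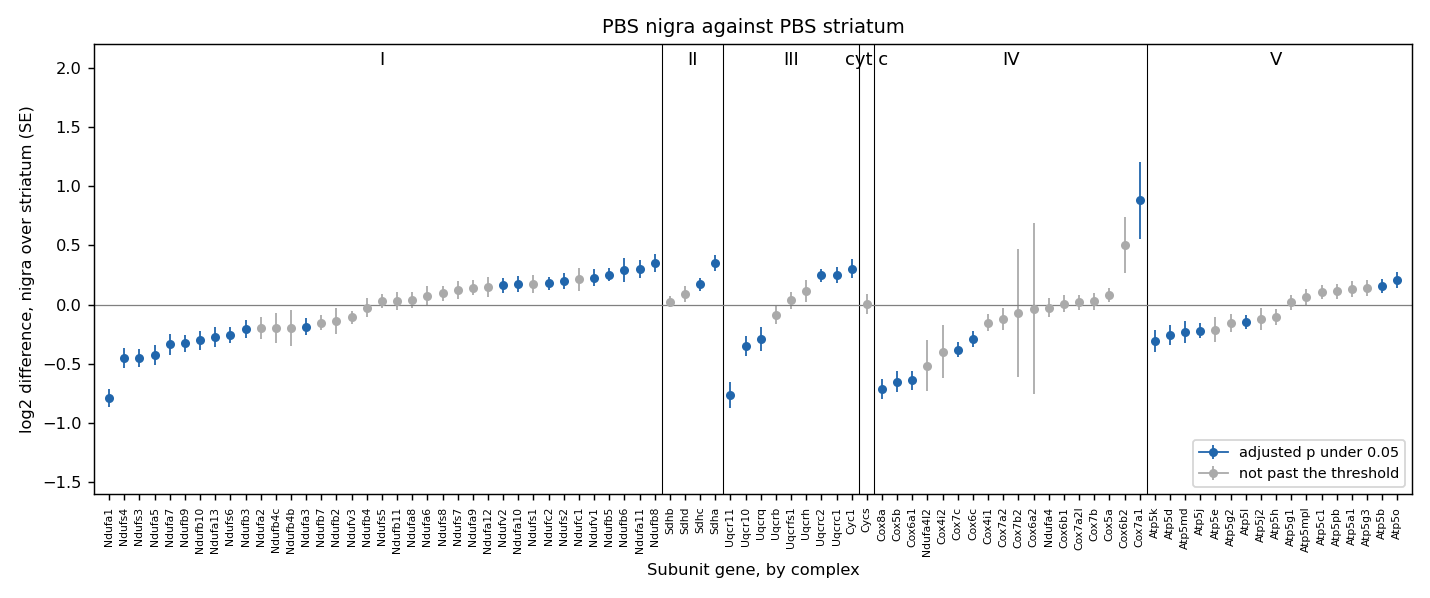
Log2 difference of each of the 86 subunit genes, PBS nigra over PBS striatum, by complex (y axis; bars are standard errors from the edgeR fit). Blue points passed the adjusted threshold: 17 lie above 0 and 24 below it, with Ndufa1, Uqcr11 and Cox8a lowest among them.

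Compared with PBS, most subunit genes were higher in nigra labelled 6-OHDA and lower in striatum labelled 6-OHDA, by small amounts that passed the correction for 0 members by edgeR and for 14 in nigra and 11 in striatum by DESeq2. In nigra labelled 6-OHDA, 84 of 86 members had a log2 change above 0 against PBS, where 49.6% of all genes tested did, with a member median of 0.18 and a median over all genes of -0.00. No member passed edgeR's correction: 0 were called by edgeR's quasi-likelihood test, where 0% of all genes were called higher and 0.00508% lower, while 51 had an unadjusted p under 0.05 in the higher direction (6.29% of all genes) and 14 were called by DESeq2. Over all 20897 genes, DESeq2 called 125 higher and 306 lower in this comparison. The 3 libraries labelled 6-OHDA lay above all 3 PBS libraries for 51 members, against 9.34% of all genes. The authors' deposited table also has 14 members with an adjusted p under 0.05, all higher. In bulk tissue, fewer cells of a type and less RNA per cell cannot be told apart.

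Every complex had a median above 0 in nigra. Complex III was the most even, with 9 of 9 members at an unadjusted p under 0.05 and a median log2 change of 0.20. Complex I had 23 of 37 (median 0.19), complex IV 10 of 18 (0.16), complex II 2 of 4 (0.14) and complex V 7 of 17 (0.16). Cycs was at 0.10 (SE 0.0799). Core subunits differed among themselves. Low log2 changes were 0.04 (SE 0.0718) for Sdha and 0.05 (SE 0.0536) for Atp5a1. The complex I subunit Ndufs1 was at 0.06 (SE 0.0570) and Atp5b at 0.06 (SE 0.0535). Cyc1 (0.27), Uqcrfs1 (0.23), the iron-sulfur protein of complex III, and Ndufv2 (0.22) were above the member median. Sdhb, the iron-sulfur protein of complex II, was at 0.178, against a member median of 0.180.

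Cox5a, a matrix-side subunit of cytochrome c oxidase, had the smallest p among members. It was at 110.5, 101 and 115 CPM in nigra labelled 6-OHDA, against 80.7, 82.7 and 88 CPM in PBS nigra. The groups were apart, with a log2 change of 0.38 (SE 0.0604, edgeR adjusted p = 0.17). Atp5j2, a subunit of the membrane part of ATP synthase, was at 82.8, 81.4 and 89.9 CPM in nigra labelled 6-OHDA, against 71.1, 66.4 and 70.8 CPM in PBS nigra. Its log2 change was 0.29 (SE 0.0536, edgeR adjusted p = 0.17). Cyc1, the cytochrome c1 of complex III, was at 147, 153 and 162 CPM in nigra labelled 6-OHDA, against 121, 129 and 134 CPM in PBS nigra, apart as well (0.27, SE 0.0694, edgeR adjusted p = 0.203).

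The 2 members below 0 were low-abundance isoforms, Cox7b2 (-0.25, SE 0.59) and Cox6a2. Cox6a2 was at 0.957, 3.67 and 0.613 CPM in nigra labelled 6-OHDA, against 4.44, 1.17 and 5.54 CPM in PBS nigra, and 1 TUG469 plus 6-OHDA nigra library had 7.29 CPM. Its groups overlapped, and the log2 change of -1.08 had an SE of 0.936. Of 5 skeletal muscle markers, 3 were listed in nigra (Ckm and Myh4 were not), and their sum was 1.42 to 2.10 CPM with TUG469 plus 6-OHDA, 1.23 to 1.85 CPM in nigra labelled 6-OHDA and 1.35 to 1.98 CPM in PBS nigra. The part of other tissue in the Cox6a2 values was not tested.

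The nigra libraries labelled 6-OHDA were not equally far from PBS. The median member stood 0.29 above the PBS mean on the log2 scale in replicate 4, and 0.11 and 0.13 above it in replicates 2 and 3. Without replicate 4, 83 members were still above 0, the median was 0.12, and 30 rather than 51 had an unadjusted p under 0.05.

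In striatum labelled 6-OHDA the direction was the reverse. There, 83 of 86 members had a log2 change below 0 against PBS, where 50.6% of all genes did, and the member median was -0.18. Again 0 were called by edgeR's quasi-likelihood test (0% of all genes lower), 42 had an unadjusted p under 0.05 in the lower direction (3.29% of all genes), DESeq2 called 11, and the authors' deposited table has 11 with an adjusted p under 0.05. Over all 20257 genes, DESeq2 called 126 higher and 47 lower in this comparison. The 3 libraries labelled 6-OHDA lay below all 3 PBS libraries for 41 members, against 5.68% of all genes.

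By complex, the striatal medians were -0.24 for complex III, -0.19 for IV, -0.17 for I, -0.16 for V and -0.07 for II, and Cycs was at -0.16 (SE 0.0869). Complex II was thus nearest to 0. Sdha was at 290.4, 298 and 315 CPM in striatum labelled 6-OHDA and at 315, 331 and 306 CPM in PBS striatum, and the groups overlapped. Cox5b, the zinc-binding subunit of cytochrome c oxidase, had the smallest p. It was at 119, 120.3 and 105 CPM in striatum labelled 6-OHDA, against 171, 166 and 160.1 CPM in PBS striatum, with a log2 change of -0.52 (SE 0.0846, edgeR adjusted p = 0.214). Cox5a (-0.33), Atp5j (-0.30) and Ndufc2 (-0.33) came next, with edgeR adjusted p of 0.222, 0.242 and 0.242. The 3 members above 0 were the rare isoforms Cox6b2 (0.49, SE 0.299), Cox7b2 (0.48, SE 0.41) and Cox4i2 (0.01, SE 0.226).

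**Figure D2:**
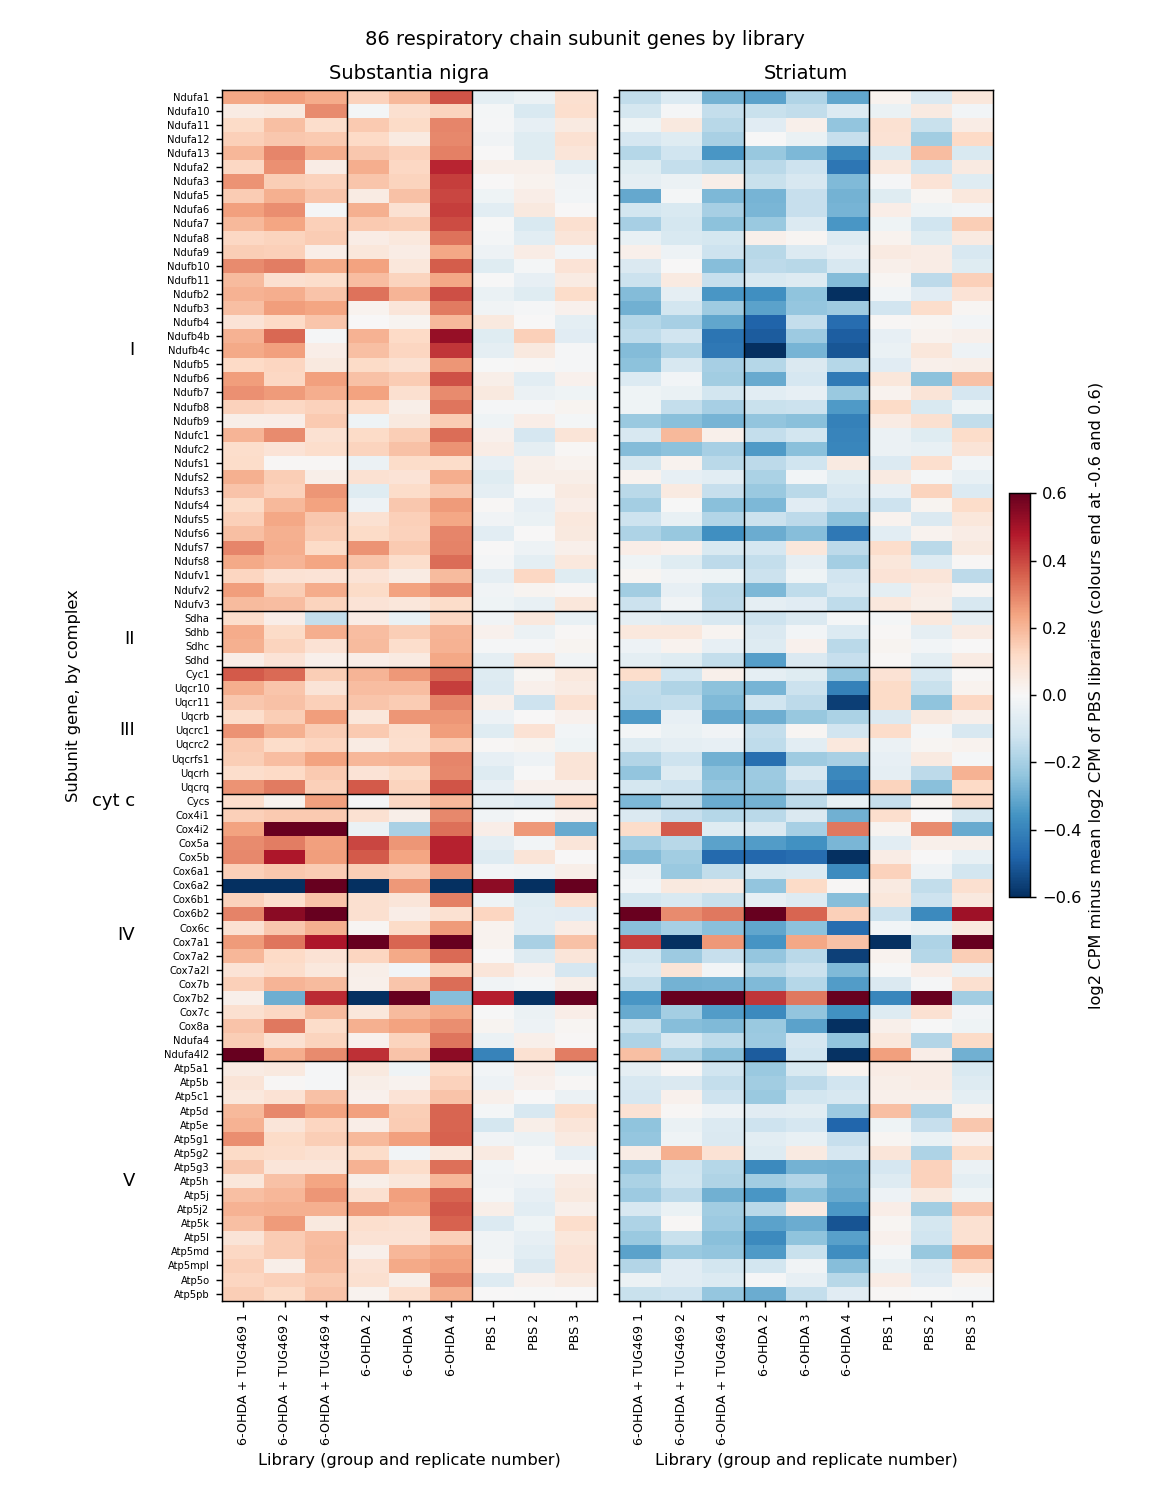
Log2 CPM of each subunit gene (rows, by complex) in each library (columns, by tissue and group), relative to the mean of the PBS libraries of the same tissue; red is higher and blue lower, and the colours end at ±0.6. Nigra libraries with 6-OHDA, with or without TUG469, are mostly red, with replicate 4 of the libraries labelled 6-OHDA the deepest, and the striatal ones mostly blue.

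Transcript length went with both patterns. Across all genes, which are not independent replicates, the log2 change against PBS was correlated with length at Spearman's rho -0.331 in nigra labelled 6-OHDA (n = 19686 genes) and 0.161 in striatum labelled 6-OHDA (n = 19115 genes). Among 10 equal classes of genes by length, the class with the shortest transcripts had a median log2 change of 0.12 in nigra and -0.10 in striatum, and the class with the longest had medians of -0.13 and 0.01. All points of these correlations share the same libraries. Removing the trend with length in each library brought the member median to 0.05 in nigra, with 70 members above 0 and 14 at an unadjusted p under 0.05, and to -0.10 in striatum, with 74 below 0 and 19 at an unadjusted p under 0.05.

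Core and accessory subunits of complex I also differed in length. The 7 core subunits, which carry the flavin, the iron-sulfur clusters and the quinone site, have a median length of 1748 bases and the 30 accessory subunits 769 bases in the nigra table. The core median was 0.13 and the accessory median 0.19 in nigra labelled 6-OHDA against PBS. In striatum the medians were -0.09 for the core and -0.22 for the accessory subunits. With the length trend removed, core and accessory medians were both 0.06 in nigra, and -0.07 and -0.10 in striatum. In TUG469 plus 6-OHDA against PBS, without that removal, the complex I core and accessory medians were 0.19 and 0.18 in nigra and -0.08 and -0.13 in striatum. In nigra labelled 6-OHDA against PBS, core and accessory medians were 0.25 and 0.20 in complex III (2 and 7 genes), and 0.09 and 0.17 in complex V (5 and 12 genes). With the length trend removed they were 0.16 and 0.06 in complex III, and 0.02 and 0.05 in complex V. The reason for the relation with length was not tested.

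**Figure D3:**
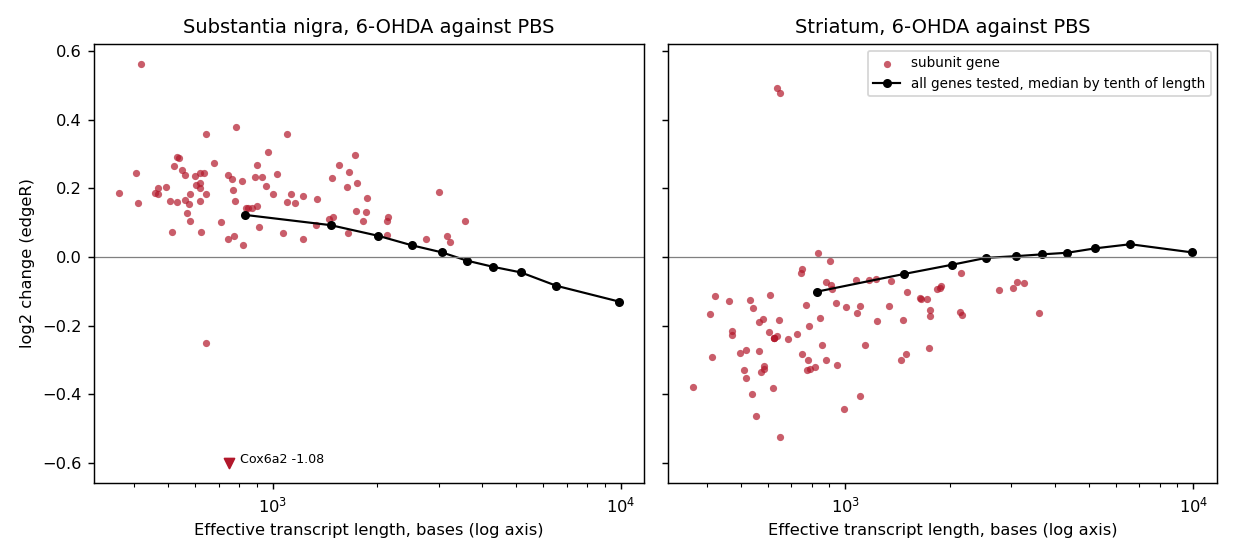
Log2 change of each subunit gene in libraries labelled 6-OHDA against PBS (y axis) by effective transcript length (x axis, log scale), in nigra and striatum. Red points are subunit genes and the black line joins the medians of all genes tested in 10 equal classes of length; in nigra the shortest class sits at 0.12 and in striatum at -0.10, and most subunit genes lie farther from 0 than the line.

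For 8 subunits the change against PBS differed between the tissues past the correction. In a joint fit of the 18 libraries, the log2 change of libraries labelled 6-OHDA against PBS was higher in nigra than in striatum for 83 of 86 members (47.5% of all genes), with a median difference of 0.36. An unadjusted p under 0.05 was reached by 71 members (6.01% of all genes), and 8 were called at an adjusted p under 0.05 by edgeR's quasi-likelihood test, where 0.0907% of all genes (17 of 18749) were called in this direction. The 8 were Cox5a, Cox5b, Cox7c and Cox8a of complex IV, Ndufc2 and Ndufs6 of complex I, and Atp5g3 and Atp5j of complex V. DESeq2 called 32 members, all higher, and over all 19401 genes it called 152 higher and 185 lower.

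The libraries of both tissues stood apart for each of the 8. In every case the 3 nigra libraries labelled 6-OHDA lay above the 3 PBS nigra libraries, and the 3 striatum libraries labelled 6-OHDA lay below the 3 PBS striatum libraries. These 8 were picked by their p in the same libraries, so this separation is no further support. Over all 86 members, groups were apart in these directions for 51 in nigra and 41 in striatum, against 9.34% and 5.68% of all genes. CPM below were scaled within each tissue.

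Cox5b differed most. In nigra it was at 143, 164 and 139 CPM with TUG469 plus 6-OHDA, 152, 138 and 161 CPM in libraries labelled 6-OHDA and 111, 124 and 117 CPM with PBS. In striatum it was at 138, 143 and 119.8 CPM with TUG469 plus 6-OHDA, 119, 120.3 and 105 CPM in libraries labelled 6-OHDA and 171, 166 and 160.1 CPM with PBS. The 2 tissues' log2 changes, 0.36 and -0.52, differed by 0.88 (SE 0.12, edgeR adjusted p = 0.0127), and this call held in all 7 other settings and in all 18 fits that left out 1 library (adjusted p at most 0.0446).

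Cox5a was at 110.5, 101 and 115 CPM in nigra labelled 6-OHDA and at 80.7, 82.7 and 88 CPM in PBS nigra. In striatum it was at 56.3, 55.3 and 58.7 CPM in libraries labelled 6-OHDA and at 68.1, 72.7 and 72.7 CPM with PBS. The difference of the changes was 0.70 (SE 0.0878, edgeR adjusted p = 0.0112), and the call was lost with the length trend removed (0.46, adjusted p = 0.122). Cox7c and Cox8a, small subunits that each span the membrane once, differed by 0.49 (SE 0.0876, edgeR adjusted p = 0.0456) and 0.62 (SE 0.116, adjusted p = 0.0493).

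Ndufc2, an accessory subunit of the membrane arm of complex I, was at 57.4, 58.9 and 63.0 CPM in nigra labelled 6-OHDA and at 53.9, 50.3 and 52.5 CPM in PBS nigra. In striatum it was at 32.6, 34.7 and 31.4 CPM in libraries labelled 6-OHDA and at 40.4, 40.0 and 43.7 CPM with PBS. The changes differed by 0.52 (SE 0.0767, edgeR adjusted p = 0.0139). Ndufs6, an accessory subunit of the matrix arm, averaged 40.2 ± 2.72 CPM in nigra labelled 6-OHDA and 35.4 ± 1.51 CPM in PBS nigra, and 30.2 ± 1.88 CPM and 37.9 ± 1.45 CPM in the same striatal groups (SD, n = 3 each). Its changes differed by 0.51 (SE 0.0955, edgeR adjusted p = 0.0493).

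Atp5j, coupling factor 6 in the stalk that holds ATP synthase's catalytic head still, was at 107, 119 and 127 CPM in nigra labelled 6-OHDA and at 99.3, 96.6 and 104 CPM in PBS nigra. In striatum it was at 82.1, 87.9 and 84.8 CPM in libraries labelled 6-OHDA and at 102, 109 and 103 CPM with PBS. The changes differed by 0.53 (SE 0.0889, edgeR adjusted p = 0.027). Atp5g3 averaged 164 ± 12.3 CPM in nigra labelled 6-OHDA and 140.5 ± 1.25 CPM in PBS nigra, and 91.8 ± 3.57 CPM and 115 ± 9.97 CPM in the same striatal groups (SD, n = 3 each). Its changes differed by 0.54 (SE 0.0973, edgeR adjusted p = 0.0467).

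The number of calls depended on single libraries. It was 13 without nigra 6-OHDA replicate 2 and 12 without striatum 6-OHDA replicate 3. It was 2 without nigra PBS replicate 2, and 3 without nigra PBS replicate 1 or nigra 6-OHDA replicate 4. It was 4 or 5 without nigra PBS replicate 3, nigra 6-OHDA replicate 3, any nigra TUG469 replicate, striatum 6-OHDA replicate 2 or 4, striatum PBS replicate 1 or 2, or striatum TUG469 replicate 1 or 4. The median difference stayed between 0.30 and 0.40 in these 18 fits. With the length trend removed the median was 0.16, 77 members were above 0, 26 had an unadjusted p under 0.05, and 1, Cox5b, was called (0.61, adjusted p = 0.0302). With a block for replicate number, 4 members were called, and Cox7c, Cox8a, Ndufs6 and Atp5g3 were not. The labels do not say that these numbers mark the same animal.

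**Figure D4:**
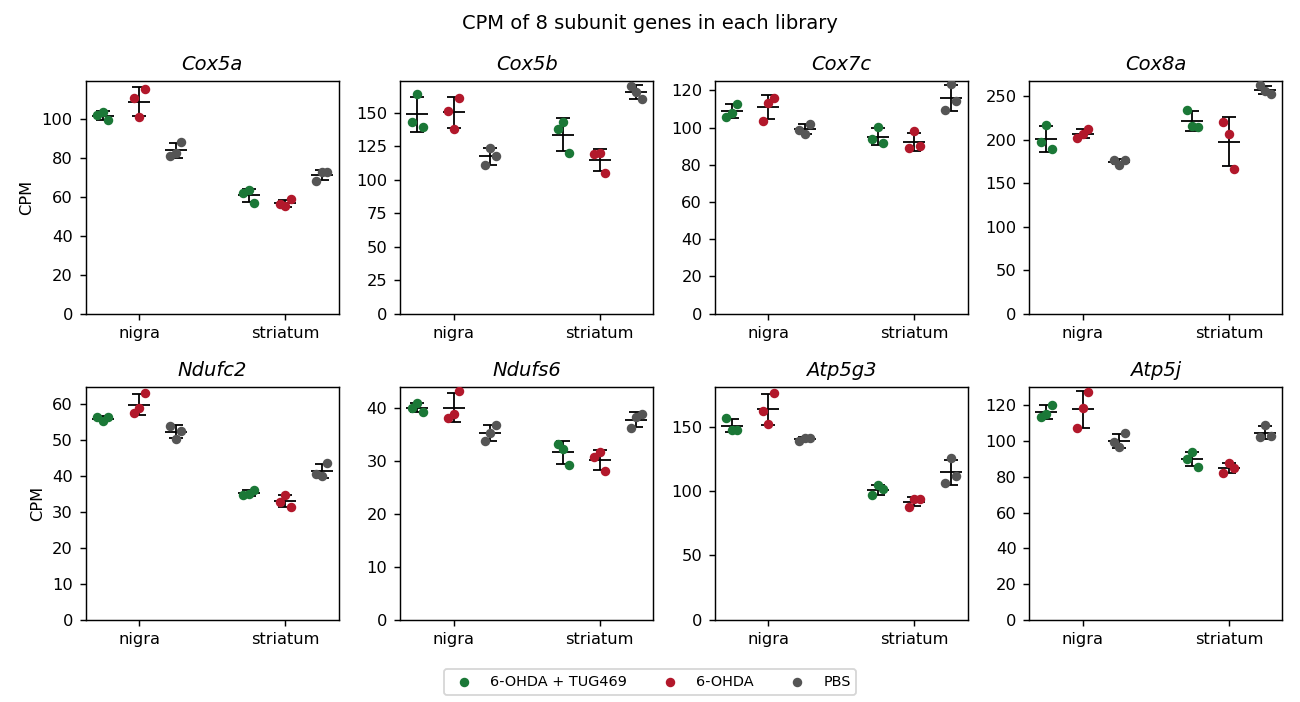
CPM, scaled within each tissue, of the 8 subunit genes whose change differed between nigra and striatum; points are libraries, and bars are the mean ± SD of 3 libraries for TUG469 plus 6-OHDA, 6-OHDA and PBS. In each panel both 6-OHDA groups lie above PBS in nigra and below PBS in striatum.

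Promoter windows of RefSeq (build GRCm38.p6, 250 bases before to 50 after a listed start site) were found for 69 of the 86 members by gene identifier. That site is not always the end of the annotated gene. The windows of Cox5a and Atp5g3 and the window of Atp5j shown here lie inside the annotated gene. Those of Cox5b, Cox8a, Atp5j and Ndufs6 are shown because all 4 genes were among the 8 called, while their windows carry different motifs. Cox8a, Atp5j and Ndufs6 are the only genes of the 8 with a motif marked below. Motifs were searched on both strands. Capitals mark CCGGAAG, the core bound by ETS factors such as GABP, AAGATGGC, bound by YY1, or CGCATGCGC, bound by NRF1; no capitals means that none of these letters was found.
Cox5b: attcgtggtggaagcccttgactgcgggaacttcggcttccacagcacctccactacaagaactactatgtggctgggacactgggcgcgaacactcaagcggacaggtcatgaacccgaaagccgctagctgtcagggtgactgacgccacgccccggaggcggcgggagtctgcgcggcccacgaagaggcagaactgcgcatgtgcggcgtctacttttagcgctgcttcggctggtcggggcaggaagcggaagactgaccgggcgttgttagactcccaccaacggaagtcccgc
Cox8a: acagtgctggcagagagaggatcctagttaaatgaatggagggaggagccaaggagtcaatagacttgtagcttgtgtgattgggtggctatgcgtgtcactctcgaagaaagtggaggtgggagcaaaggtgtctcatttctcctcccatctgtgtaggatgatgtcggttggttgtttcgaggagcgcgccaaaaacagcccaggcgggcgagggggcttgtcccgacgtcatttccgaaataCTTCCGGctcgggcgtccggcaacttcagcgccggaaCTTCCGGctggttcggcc
Atp5j: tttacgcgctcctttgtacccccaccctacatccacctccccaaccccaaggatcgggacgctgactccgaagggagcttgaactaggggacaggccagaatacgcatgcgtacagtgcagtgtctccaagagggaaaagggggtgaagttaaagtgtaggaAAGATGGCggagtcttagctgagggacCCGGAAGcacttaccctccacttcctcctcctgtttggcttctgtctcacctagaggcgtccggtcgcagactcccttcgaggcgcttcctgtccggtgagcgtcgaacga
Ndufs6: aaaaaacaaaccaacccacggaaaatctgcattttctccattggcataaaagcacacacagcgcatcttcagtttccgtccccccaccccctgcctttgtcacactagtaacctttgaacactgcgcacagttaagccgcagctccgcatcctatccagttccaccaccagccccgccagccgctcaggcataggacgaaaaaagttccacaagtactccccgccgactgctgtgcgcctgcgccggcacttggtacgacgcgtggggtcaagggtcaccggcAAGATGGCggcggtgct
The Cox5b window (chr1:36691237-36691536, plus strand) held none of them. Neither did the windows of Cox5a, Cox7c, Ndufc2 and Atp5g3, which are not shown. Cox8a (chr19:7217567-7217866, minus strand) held 2 ETS cores, Atp5j (chr16:84834927-84835226, minus strand; a further window of this gene held none) 1 ETS core and 1 YY1 motif, and Ndufs6 (chr13:73328433-73328732, minus strand) 1 YY1 motif. Over the members, 17 of 69 genes held CCGGAAG (24.6%, against 9.93% of all 27025 genes with a window and 12.95% of the 17492 protein-coding ones). AAGATGGC was held by 10 members (14.5%, against 3.19% of all and 3.57% of protein-coding genes) and CGCATGCGC, bound by NRF1, by 9 (13%, against 1.95% and 2.61%). GGGCGG, bound by SP1, was in 42.0% of members, 38.2% of all and 49.2% of protein-coding genes, and CCAAT in 44.9%, 41.1% and 42.3%. A match describes the letters in the window only.

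Between the libraries labelled TUG469 plus 6-OHDA and those labelled 6-OHDA, no subunit passed the correction. Since Slc6a3 and Th go against the 6-OHDA label in nigra, whether the labels of these 2 groups were exchanged cannot be told from the files, and an exchange would turn round each direction between them. In nigra, 32 members were above 0 and 54 below 0 in TUG469 plus 6-OHDA against 6-OHDA (49.1% of all genes below), the median was -0.01, and edgeR's quasi-likelihood test called 0 (0% of all genes higher and 0.00508% lower), as did DESeq2 and the authors' deposited table. An unadjusted p under 0.05 was reached by 1 member (3.86% of all genes higher, 4.35% lower), the rare isoform Cox6b2 at 2.0, 2.37 and 2.49 CPM with TUG469 plus 6-OHDA and 1.74, 1.67 and 1.74 CPM in libraries labelled 6-OHDA, which do not overlap (0.41, SE 0.154, edgeR adjusted p = 0.561). Without nigra 6-OHDA replicate 4, 65 members were above 0 and the median was 0.04.

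In striatum 76 of 86 members were above 0 in TUG469 plus 6-OHDA against 6-OHDA (50% of all genes), with a median of 0.06. Here too edgeR and DESeq2 called 0 of the members (edgeR called 0% of all genes higher and 0.00523% lower), 4 had an unadjusted p under 0.05, all higher (3.46% of all genes higher, 4.03% lower), and the groups were apart for 8 (7.11% of all genes). Cox7a2l was at 100.1, 112 and 105 CPM with TUG469 plus 6-OHDA and 94.2, 96.8 and 88.1 CPM in libraries labelled 6-OHDA, apart, with a log2 change of 0.18 (SE 0.065, edgeR adjusted p = 0.601). Atp5k was at 44.2, 50.5 and 43.2 CPM with TUG469 plus 6-OHDA and 40.3, 40.9 and 35.1 CPM in libraries labelled 6-OHDA, also apart (0.25, SE 0.0888, edgeR adjusted p = 0.602). Cox5b (0.22) and Ndufc1 (0.26) made up the 4. The median was 0.01 with the length trend removed and 0.11 without striatum 6-OHDA replicate 3. Whether the TUG469 effect differed between tissues was tested in the joint fit: 71 members were below 0 (49.3% of all genes), 4 had an unadjusted p under 0.05 (2.07% of all genes lower), the median was -0.08, and edgeR and DESeq2 called 0.

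The TUG469 libraries were also set against PBS, and these PBS libraries are the same as those above. In nigra 84 members were above 0 in TUG469 plus 6-OHDA against PBS (51.6% of all genes), the median was 0.16, and 64 members had groups apart (11.7% of all genes). EdgeR's quasi-likelihood test called 0 members, where 0.401% of all genes were called higher and 1.45% lower; 48 had an unadjusted p under 0.05 (8.69% of all genes), DESeq2 called 17, and the authors' deposited table has 17. Over all 20897 genes, DESeq2 called 518 higher and 1025 lower. The 3 TUG469 nigra libraries were alike, with the median member 0.16 above the PBS mean in each. Cox5a was at 102, 104 and 99.3 CPM with TUG469 plus 6-OHDA and 80.7, 82.7 and 88 CPM with PBS, apart, and came nearest to the threshold (0.28, SE 0.0603, edgeR adjusted p = 0.0505). Cox5b (0.34, adjusted p = 0.057), Cyc1 (0.29, 0.0663) and Ndufb7 (0.25, 0.0682) followed in the same edgeR test. The count of 48 was 28 without nigra PBS replicate 1 and 31 without replicate 2, and with the length trend removed it was 6, with a median of 0.03.

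Striatum with TUG469 plus 6-OHDA had 77 members below 0 against PBS (49.7% of all genes), a median of -0.12, and groups apart for 27 (9.47% of all genes). Calls were 0 by edgeR's quasi-likelihood test (0% of all genes lower), by DESeq2 and in the authors' deposited table, and 21 members had an unadjusted p under 0.05 (6.17% of all genes). That number was 10 without striatum PBS replicate 3 and 9 without striatum TUG469 replicate 1 or replicate 4. Cox7c, at 93.7, 100.2 and 91.6 CPM with TUG469 plus 6-OHDA and 109, 123 and 114 CPM with PBS, was apart and had the smallest p (-0.28, SE 0.0706, edgeR adjusted p = 0.218). The difference between the tissues was above 0 for 83 members (48.4% of all genes), 58 of them at an unadjusted p under 0.05 (4.58% of all genes), with a median of 0.29. EdgeR called 0 of these differences and DESeq2 7: Cox5a, Cox5b, Cox7c, Cox6c, Atp5j, Ndufs6 and Ndufc2. Over all 19401 genes, DESeq2 called 26 higher and 35 lower.

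**Figure D5:**
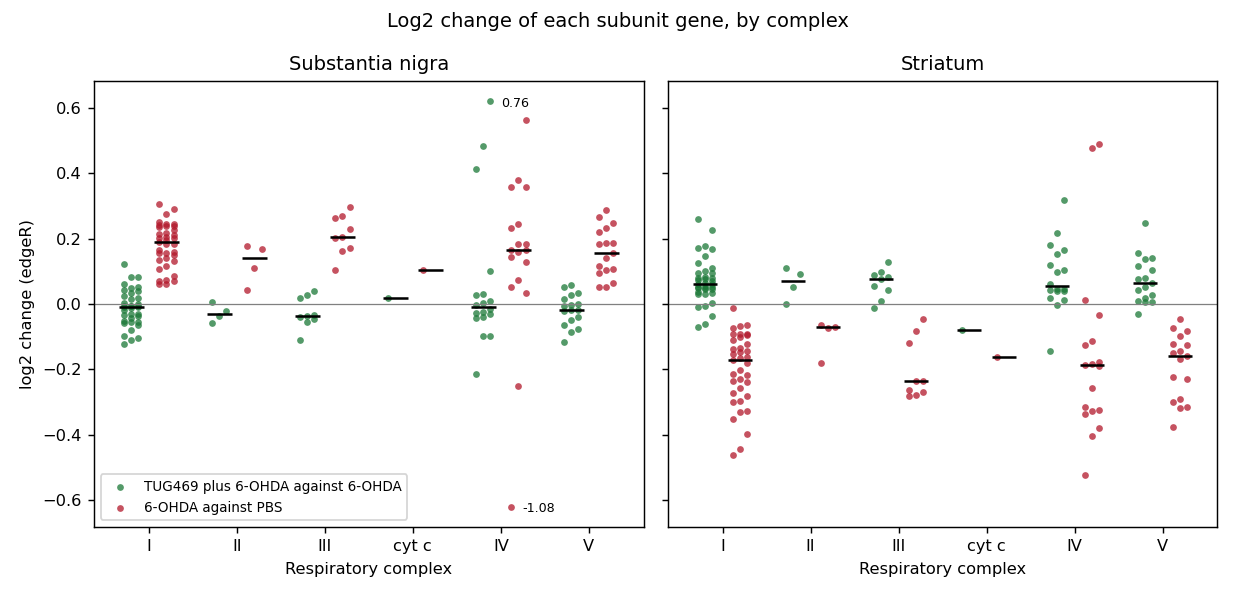
Log2 change of each subunit gene by complex in nigra and striatum, for TUG469 plus 6-OHDA against 6-OHDA (green) and 6-OHDA against PBS (red); black lines are medians, and 2 Cox6a2 values beyond the axis are written beside their points. The green medians lie within 0.1 of 0, while the red medians lie between 0.10 and 0.20 in nigra and between -0.24 and -0.07 in striatum.

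In libraries labelled 6-OHDA against PBS, 4 other lists of genes had medians nearer to 0 than the nuclear subunits. They were assembly factors, enzymes that feed the chain, its mitochondrially encoded subunits and regulators of respiratory genes. None of these medians was corrected for transcript length. With the length trend removed the medians of the nuclear subunits were 0.05 in nigra and -0.10 in striatum. The 4 lists were not fitted that way, so whether the nuclear subunits differ from them beyond length was not tested. Of 46 assembly factors tested, 35 were above 0 in nigra labelled 6-OHDA against PBS (median 0.09, 11 higher at an unadjusted p under 0.05), and 39 were below 0 in striatum (median -0.08, 5 lower). Cox17 and Sco2, which deliver copper to cytochrome c oxidase, were among the smallest p: Cox17 was at 0.22 (SE 0.0724) in nigra and -0.30 (SE 0.0874) in striatum, and Sco2 at -0.84 (SE 0.163) in striatum. Of 17 genes of pyruvate dehydrogenase and the citric acid cycle, 15 were above 0 in nigra (median 0.10) and 13 below 0 in striatum (median -0.07). All 13 mitochondrially encoded subunits were above 0 in nigra (median 0.10, 0 at an unadjusted p under 0.05) and 9 were below 0 in striatum (median -0.07). The 16 regulators of respiratory genes had 6 above 0 in nigra and 10 in striatum, with medians of -0.01 and 0.02; Esrra, a nuclear receptor of respiratory genes, was at 0.19 (SE 0.0678) in nigra and -0.20 (SE 0.0897) in striatum. EdgeR called 0 genes of these 4 lists in either comparison; of the last 3 lists, 4, 0 and 2 genes had an unadjusted p under 0.05 in nigra and 1, 0 and 2 in striatum, and DESeq2 called 1 gene of the 4 lists, Sco2 in striatum.

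Some marker lists of cell types also lay to 1 side of PBS in the same comparisons, and others did not. EdgeR called 0 markers there. DESeq2 called 6 ependymal markers in striatum. In nigra it called 2 ependymal (Dnah11 and Hydin), 2 astrocyte (S100b and Slc1a3, 1 higher and 1 lower) and 1 dopamine neuron marker (Th). For the difference of these changes, nigra minus striatum, DESeq2 called 7 of 9 ependymal markers lower and no marker of another cell type. Of the 4 lists before, it called Cox17 higher there. At an unadjusted p under 0.05 were 5 ependymal, 1 oligodendrocyte, 5 neuronal and 5 blood markers in nigra and 9, 0, 1 and 0 of the same lists in striatum. Ependymal markers, of the cells lining the ventricles, were below 0 in 9 of 9 in nigra labelled 6-OHDA (median -0.86; summed level 41.2 to 81.9 CPM, against 74.2 to 99.3 CPM with PBS) and above 0 in 9 of 9 in striatum (median 1.60; 53.4 to 69.0 CPM, against 18.2 to 31.9 CPM with PBS). Oligodendrocyte markers were above 0 in 8 of 8 in nigra (median 0.18; 13140 to 15240 CPM, against 11340 to 13790 CPM) and below 0 in 7 of 8 in striatum (median -0.11; 8242 to 10170 CPM, against 8342 to 11050 CPM). Neuronal markers were above 0 in 8 of 10 in nigra (median 0.14; 6928 to 7821 CPM, against 6615 to 7024 CPM) and in 5 of 10 in striatum (median 0.01; 5188 to 5679 CPM, against 5209 to 5644 CPM). Haemoglobin genes and Alas2, of red blood cells, were below 0 in 5 of 5 in nigra (median -1.80; 4.3 to 20.4 CPM, against 23.4 to 60.6 CPM) and in 4 of 4 listed in striatum (median -1.72; 2.60 to 13.2 CPM, against 8.22 to 28.0 CPM). The other lists had nigral and striatal medians of -0.02 and 0.02 (8 astrocyte markers), -0.08 and -0.02 (8 microglial), -0.07 and -0.17 (10 endothelial and mural), -0.06 and 1.68 (choroid plexus, 7 and 4 listed), 0.47 and 0.22 (dopamine neurons, 6 and 4 listed) and 0.02 and 0.28 (skeletal muscle, 3 and 2 listed). Choroid plexus genes summed to 1670 CPM in striatum 6-OHDA replicate 2, 26.4 and 36.4 CPM in the other libraries of that group and 24.8 to 167 CPM in PBS striatum. Without that library, 80 subunit genes were below 0 in striatum labelled 6-OHDA against PBS, the median was -0.17 and 29 rather than 42 had an unadjusted p under 0.05.

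In TUG469 plus 6-OHDA against PBS, oligodendrocyte markers were above 0 in 8 of 8 in nigra (median 0.25) and below 0 in 7 of 8 in striatum (median -0.17), and ependymal markers below 0 in 9 of 9 in nigra (median -0.64) and above 0 in 9 of 9 in striatum (median 1.07). Dopamine neuron markers were below 0 in 6 of 6 in nigra (median -0.79), where their summed level was 74.4 to 141 CPM with TUG469 plus 6-OHDA and 178 to 239 CPM with PBS. In nigra edgeR called 2 markers of all lists, Slc6a3 (-2.08, SE 0.192, adjusted p = 0.00407) and the neuronal Map2 (-0.29, SE 0.0613, adjusted p = 0.0486), both lower. The 13 mitochondrially encoded subunits were all above 0 there (median 0.21, 8 at an unadjusted p under 0.05), and 12 were below 0 in striatum (median -0.11). Blood genes were below 0 in 5 of 5 in nigra (median -2.30, 5 at an unadjusted p under 0.05; 2.05 to 14.1 CPM with TUG469 plus 6-OHDA, against 23.4 to 60.6 CPM with PBS) and in 4 of 4 listed in striatum (median -2.67, 4 at an unadjusted p under 0.05; 0.619 to 8.96 CPM, against 8.22 to 28.0 CPM). DESeq2 called more genes in nigra: 3 blood genes, 2 ependymal markers, 2 astrocyte markers, 2 dopamine neuron markers, Map2 and the regulator Gabpa lower, and 3 oligodendrocyte markers, 5 mitochondrially encoded subunits, the assembly factors Ndufaf3 and Ndufaf8 and the citric acid cycle enzyme Fh1 higher. In striatum it called 4 ependymal markers higher and the neuronal Nefm lower.

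Between TUG469 plus 6-OHDA and 6-OHDA alone, in striatum, choroid plexus genes were below 0 in 4 of 4 listed (median -2.33, 4 at an unadjusted p under 0.05), ependymal markers in 9 of 9 (median -0.57, 1) and blood genes in 4 of 4 (median -0.91, 0). Microglial markers were above 0 in 8 of 8 (median 0.24, 3 at an unadjusted p under 0.05), with a summed level of 410 to 476 CPM with TUG469 plus 6-OHDA and 370 to 411 CPM in libraries labelled 6-OHDA. In nigra, dopamine neuron markers were below 0 in 6 of 6 (median -1.38, 5 at an unadjusted p under 0.05), blood genes in 5 of 5 (median -0.67, 0), and ependymal markers were above 0 in 8 of 9 (median 0.27, 0). Of all these lists DESeq2 called Slc6a3 and Th lower in nigra, and Sco2 and the endothelial and mural marker Vtn higher in striatum. It also called Th lower for the difference, nigra minus striatum. Over all genes it called 32 higher and 69 lower in nigra, and 28 higher and 34 lower in striatum. The part of any of these cell types in the subunit values was not tested.

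Some subunit counts may hold reads of other genes. In the annotation, 29 of the 86 members overlap another gene, 18 of them a protein-coding one. Atp5j overlaps Gabpa, which encodes a GABP subunit, and Cox7c overlaps Gm22574. The library kit keeps the strand of the RNA, but no source used here says whether counting took it into account. The pseudogene Ndufs5-ps had 5.60 to 7.79% of the count of Ndufs5 in nigra libraries and 4.79 to 7.44% in striatum libraries.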

How the data were processed

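Stranded mRNA libraries were made from column-purified RNA, per the labels' protocols. The submitters' processing notes name Cufflinks, STAR 2.7.3a, FastQC 0.11.7, Trim Galore 0.38 and build GRCm38, with no order. For each library and gene the authors deposited a raw count, a TPM and an FPKM value, and, per the file headers, signed linear fold changes and Benjamini-Hochberg adjusted p-values for each pair of groups (a fold below 1 is written as minus its inverse). Genes are listed only where all 9 libraries of a tissue have a count of at least 1. No source used here names the test behind those columns. Deposited TPM values were used for levels within and between genes, and deposited FPKM values, with the counts, to compute effective transcript lengths.

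Counts were fitted with edgeR 4.0.16 in R 4.3.3: TMM scaling, filterByExpr (minimum count 10, minimum total 15), 1 mean per group over the 9 libraries of a tissue, glmQLFit and glmQLFTest, and Benjamini-Hochberg adjustment over 19686 genes in nigra and 19115 in striatum. The biological coefficient of variation was 0.135 in nigra and 0.161 in striatum. Differences between tissues came from 1 fit of all 18 libraries over 18749 genes, as the difference of the 2 tissues' log2 changes. Called means an adjusted p under 0.05. The script was tested on simulated data. Tables were read with Python 3.11.15 and pandas 2.3.3.

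Alternatives were DESeq2 size factors in edgeR, no filter, DESeq2 1.42.0, limma 3.58.1 on log2(TPM + 1), only the groups compared, a trend with transcript length removed per library, a replicate block, and leaving out each library. The members and lists were chosen with earlier results of these data known, and medians and counts over members have no test. Named are, per comparison, members past the threshold (the 12 of smallest p where more passed; where fewer than 4 passed in a direction, the 4 of smallest p), fixed core subunits, isoform groups, up to 4 genes of a list, and the highest and lowest member of a complex. Members that DESeq2 alone called, and those whose direction turned with the scale, were named after their values were seen. The NRF1 motif was shortened by 1 base after the longer form had been searched.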

Additional observations from a re-analysis of the deposited data

Results flagged for a closer look

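For 8 subunit genes the log2 change of libraries labelled 6-OHDA against PBS differed between nigra and striatum by the interaction test itself (edgeR quasi-likelihood test, adjusted p under 0.05). The differences, nigra minus striatum, were 0.70 for Cox5a, 0.88 for Cox5b, 0.49 for Cox7c, 0.62 for Cox8a, 0.52 for Ndufc2, 0.51 for Ndufs6, 0.54 for Atp5g3 and 0.53 for Atp5j. In 3 of 3 nigra libraries labelled 6-OHDA each gene was above the PBS libraries, and in 3 of 3 striatum libraries labelled 6-OHDA it was below them. The genes were picked by p in the same libraries, so this separation is no further support. The call held in 7 of 7 other settings for Cox5b, 6 for Cox5a, 5 for Ndufc2 and Atp5j, 3 for Cox7c and Atp5g3, and 2 for Cox8a and Ndufs6. Leaving out each of the 18 libraries in turn kept it in 18 fits for Cox5a and Cox5b, 17 for Ndufc2, 10 for Atp5j, 6 for Cox8a and Atp5g3, and 4 for Cox7c and Ndufs6.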

How the results depend on the processing

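DESeq2 in place of edgeR raised the members called to 14 in nigra 6-OHDA against PBS, 17 in nigra TUG469 plus 6-OHDA against PBS, 11 in striatum 6-OHDA against PBS, 32 for the difference between tissues under 6-OHDA against PBS and 7 for that under TUG469 plus 6-OHDA against PBS. Over all genes, too, DESeq2 called more than edgeR in each of these comparisons. With limma on log2(TPM + 1), 1 member was called in nigra TUG469 plus 6-OHDA against PBS and 4 for the tissue difference under 6-OHDA against PBS. The medians were then -0.12 for striatum 6-OHDA against PBS, -0.048 for striatum TUG469 plus 6-OHDA against PBS, 0.26 and 0.18 for the tissue differences of 6-OHDA and of TUG469 plus 6-OHDA against PBS, and 0.28 for PBS nigra against PBS striatum; the median of all genes shifted by 0.22 in the last and by -0.11 in the tissue difference of TUG469 plus 6-OHDA against PBS. With the length trend removed the medians were 0.052 (nigra) and -0.10 (striatum) for 6-OHDA against PBS, 0.030 for nigra TUG469 plus 6-OHDA against PBS, 0.0082 for striatum TUG469 plus 6-OHDA against 6-OHDA, 0.16 for both tissue differences against PBS and 0.12 for PBS nigra against PBS striatum, and 1 member was called for the tissue difference under 6-OHDA. Fitting only the groups compared left 2 calls there. The causes of these moves were not tested. The labels do not say that replicate numbers mark the same animal. After group means were removed, same-numbered libraries of the 2 tissues correlated at 0.018 to 0.204 (9 of 9 above 0, 5 above 0.1), and 8 of 9 nigra libraries correlated best with their own number within their group, a hint of pairing in the data and not in the design; same-numbered libraries within a tissue correlated at -0.264 to 0.417. The replicate block left 4 calls for the tissue difference under 6-OHDA; Cox7c, Cox8a, Ndufs6 and Atp5g3 were not called.

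Leaving out 1 library at a time, the tissue difference under 6-OHDA against PBS had 2 to 13 calls, nigra TUG469 plus 6-OHDA against PBS 0 to 1 (1 without PBS 3, 6-OHDA 3 or TUG469 4), and striatum TUG469 plus 6-OHDA against 6-OHDA a median of 0.045 to 0.11. The median of nigra TUG469 plus 6-OHDA against 6-OHDA ran from -0.05 to 0.04, the value above 0 being that without 6-OHDA replicate 4. Ndufa4 and Cox7a2, PBS nigra against PBS striatum, turned round: Ndufa4 to 0.27 and Cox7a2 to 0.21 with TPM, and Ndufa4 to 0.23 with the length trend removed. Among 325 results for single members, 107 of 6415 alternative values lost the call, 68 gained one, 3 reversed with a call and 272 differed in sign without one. With 3 libraries a group, counts of calls rest on few degrees of freedom; the log2 medians of the members varied between replicates by an SD of 0.06 in nigra and 0.05 in striatum.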
